A study of Mus musculus with 59 samples.

Results

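The comparison described here is between pro-B cells that carry the PAIR4 element with a transcription stop in front of most of its transcript (genotype Igh P4StopG/P4StopG, 3 libraries) and Igh+/+ pro-B cells (6 libraries). The 9 libraries were chosen by their labelled genotype and experiment number, out of 48 VDJ-seq libraries and 59 samples in the series. The study reinserted versions of PAIR4 into an Igh allele that lacks a large stretch of the distal VH gene cluster, and asked by VDJ-seq how much VH gene recombination each version restores. The stop allele addresses whether transcription through PAIR4 matters for this activity.

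In both groups, pro-B cells were sorted ex vivo from the bone marrow of mice, and genomic DNA was used. The P4StopG mice carried, on both alleles, which are of C57BL/6 origin, the Igh Δ890 deletion, which removes 890 kb of the distal VH gene cluster with the PAIR elements that lie in it, and in its place PAIR4 with a row of synthetic polyadenylation sequences and a Gfp cDNA in the first exon of the PAIR4 transcript. The enhancer next to VH8-7, called V8.7E, and VH8-7 itself were not part of the insert. All P4StopG cells therefore differ from Igh+/+ cells by the deletion as well as by the insertion and its stop, and the allele was made in embryonic stem cells by targeted insertion. A comparison with Igh+/+ cells alone cannot tell these parts apart. Values of 3 further genotypes that carry the same deletion are given at the end for this reason: Igh Δ890/Δ890 (the deletion with no PAIR4), Igh P4/P4 (PAIR4 without the stop, with a cDNA of its spliced transcript in exon 2) and Igh P4inv/P4inv (the same insert turned around), with 3 libraries each. VDJ-seq counts joints in DNA, so neither marker transcripts of pro-B cells nor the PAIR4 transcript could be checked in these libraries.

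An antibody heavy chain gene is assembled in pro-B cells from a VH, a DH and a JH segment, with DH joined to JH first and VH joined to DJH next. Each VH segment is followed by a recombination signal sequence (RSS), made of a heptamer, a spacer and a nonamer, which the RAG recombinase recognizes. PAIR elements are repeats in the distal VH cluster of the mouse that bind Pax5, E2A and CTCF and give rise to antisense transcripts in pro-B cells, and distal VH genes need contraction or loop extrusion of the locus to reach the DJH joint. The usage of a VH gene is the percentage of its joints among all VDJH and DJH joints of a library, and the sum over all VH genes is the percentage of VDJH joints.

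Recombination signal sequences are shown for the 12 VH genes that the study used to follow the regions on both sides of the insertion, since these genes carry the main comparison. All lie on chromosome 12 on the minus strand and are annotated as VH segments in mm9, and the deletion separates the first 6 from the last 6. The genotyping primers of the study place the downstream edge between 116237049 and 116237737 and the upstream edge between 117126158 and 117126678 (mm9). Upstream means the distal side, away from the DH segments. The heptamer and the nonamer are in capitals, and the 23 bases of spacer between them in lower case. Sequences are read 5′ to 3′ on the coding strand from the mm9 genome, directly after the last annotated base of the gene, with the RSS given as start and end.
VH1-85 (chr12:117238200-117238238): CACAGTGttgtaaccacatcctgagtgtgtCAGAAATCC
VH1-84 (chr12:117218874-117218912): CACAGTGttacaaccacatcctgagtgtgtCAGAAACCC
VH1-83 (chr12:117201989-117202027): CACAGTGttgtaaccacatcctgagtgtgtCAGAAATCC
VH1-82 (chr12:117190710-117190748): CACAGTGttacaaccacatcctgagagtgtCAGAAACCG
VH1-81 (chr12:117158451-117158489): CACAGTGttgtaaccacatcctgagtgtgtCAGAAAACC
VH1-80 (chr12:117150516-117150554): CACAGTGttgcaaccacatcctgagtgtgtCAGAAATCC
VH1-47 (chr12:116229280-116229318): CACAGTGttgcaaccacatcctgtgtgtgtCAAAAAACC
VH1-43 (chr12:116184122-116184160): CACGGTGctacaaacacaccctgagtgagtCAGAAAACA
VH1-42 (chr12:116175285-116175323): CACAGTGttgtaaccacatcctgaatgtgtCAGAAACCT
VH1-39 (chr12:116152771-116152809): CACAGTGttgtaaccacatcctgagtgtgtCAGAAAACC
VH1-37 (chr12:116134410-116134448): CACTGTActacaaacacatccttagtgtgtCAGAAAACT
VH1-36 (chr12:116118060-116118098): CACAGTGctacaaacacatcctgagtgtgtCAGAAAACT
In 10 of the 12 genes the heptamer has all 7 letters of the consensus heptamer CACAGTG, and VH1-43 and VH1-37, with 6 and 5 matching letters, are the exceptions. The nonamers match the consensus nonamer less well, from 4 of 9 letters in VH1-82 and VH1-42 to 7 of 9 in VH1-47. The RSS of VH1-85 and VH1-83 are the same in every letter, as are those of VH1-81 and VH1-39, which lie on opposite sides of the deletion. PAIR4 itself is shown by its Pax5 recognition site, which the insert keeps, at chr12:116500696-116500730 (mm9, plus strand).
PAIR4 Pax5 site: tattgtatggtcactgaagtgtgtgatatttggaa
This sequence of 35 bases was found at 4 places of mm9 chromosome 12, all of which lie within the deletion.

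The deletion itself was visible in every P4StopG library. The 49 listed VH genes of the deleted region took 10.1% to 23.2% of all joints in the Igh+/+ libraries, with a median of 11.8%. In the P4StopG libraries their sum was 0.180%, 0.138% and 0.132%. VH8-7, the pseudogene next to the V8.7E enhancer, was used in 0.226% to 0.285% of the joints in Igh+/+ pro-B cells and was listed at 0 in all 3 P4StopG libraries. Of the 35 deleted VH genes with a mean of at least 0.01% in Igh+/+ cells, 21 were listed at 0 in all P4StopG libraries, whereas 5 deleted genes had a value above 0 in all 3. The largest of these was VH1-69, with 0.0426%, 0.0618% and 0.0420% against 0.391% to 0.954% in Igh+/+ cells, followed by VH1-64 with 0.0720%, 0.0239% and 0.0420% against 0.707% to 2.14%. Reads of near-identical VH1 genes may be split between names, and their part in these values was not tested. The Δ890, P4 and P4inv libraries had a similar remainder, with means of 0.140%, 0.169% and 0.219%.

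Before the results, 1 library has to be set apart. Igh+/+ replicate 3, of experiment 126448, had 78.8% VDJH joints, while the other 5 Igh+/+ libraries of this comparison had 46.5% to 56.8%. It was also the highest Igh+/+ library for most distal VH genes and the lowest for the proximal VH5-2. For this reason, results are given with all 6 Igh+/+ libraries, and for the main ones also without this one. The lowest usage above 0 was 0.000862% to 0.00108% in the Igh+/+ libraries and 0.000980%, 0.00399% and 0.00280% in the P4StopG libraries. Values of little used genes in P4StopG replicates 2 and 3 thus lie close to the lowest value these libraries list. The number of joints is not given, so no counting intervals are stated, and p-values describe the spread between these libraries, which the series calls biological replicates.

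VDJH joints were fewer in P4StopG than in Igh+/+ pro-B cells. They made up 29.3%, 37.9% and 38.3% of all joints in the P4StopG libraries, with a mean of 35.2% ± 5.06 (SD, n = 3). The Igh+/+ libraries ranged from 46.5% to 78.8%, with a median of 49.5% and a mean of 54.7% ± 12.5 (SD, n = 6). All P4StopG libraries lay below these 6 Igh+/+ libraries, and the difference of -19.5 percentage points had the smallest p-value that 84 splits of 3 against 6 libraries allow (exact permutation test, two-sided, p = 0.0238). Without experiment 126448 the difference was -14.7 points, with p = 0.0357, again the smallest possible in the exact test. With the 9 Igh+/+ libraries of 3 other sets of experiment numbers added, the mean of the 15 Igh+/+ libraries was 47.5%, the difference -12.3 points and p = 0.0172 in the exact test. The groups then overlapped, since 2 of the added libraries had 33.8% and 37.5% VDJH joints. Most of this difference lay in the deleted genes: with only the VH genes outside the deleted region, P4StopG libraries had 35.0% and Igh+/+ libraries 41.1%, the groups overlapped, and p was 0.286 in the exact permutation test. Experiment 126448 enlarged this remaining difference: placed genes outside the deletion took 53.5% of its joints and 34.2% to 41.2% in the other Igh+/+ libraries.

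The 6 VH genes upstream of the insertion, VH1-85 to VH1-80, were used in P4StopG pro-B cells at levels that overlapped those of Igh+/+ cells. Their sum was 1.22%, 1.82% and 1.97% in the P4StopG libraries. In the Igh+/+ libraries it was 1.54% at the lowest, 1.96% at the median and 4.73% at the highest. P4StopG replicate 1 lay below all Igh+/+ libraries, while replicates 2 and 3 lay among the lower 4 of them, and the highest value belonged to experiment 126448. The means were 1.67% ± 0.398 (SD, n = 3) and 2.39% ± 1.19 (SD, n = 6), a difference of -0.72 points that was within the spread (exact permutation test, p = 0.262). That 1 library set the size of the difference: without it, the Igh+/+ mean was 1.92% ± 0.362 (SD, n = 5), the difference -0.25 points and p = 0.393 in the exact test. The design cannot show small differences here, and the absence of a difference does not follow from these values.

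The 6 VH genes downstream of the insertion, VH1-47, VH1-43, VH1-42, VH1-39, VH1-37 and VH1-36, fell as a sum. Their summed usage was 0.435%, 0.861% and 0.896% in the P4StopG libraries. The Igh+/+ libraries ranged from 1.28% to 2.36%, with a median of 1.35%. No P4StopG library reached the lowest Igh+/+ library. The mean usage was 0.731% ± 0.257 (SD, n = 3) against 1.51% ± 0.421 (SD, n = 6), or 0.483 times the Igh+/+ mean, and p was 0.0238 in the exact permutation test. Without experiment 126448 the mean of Igh+/+ was 1.34%, the ratio 0.545 and p = 0.0357, the smallest value the exact test allows. The same genes, as a share of the VDJH joints outside the deleted region, had 2.04% in P4StopG and 3.64% in Igh+/+ libraries, again without overlap and with p = 0.0238 in the exact test.

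**Figure D1:**
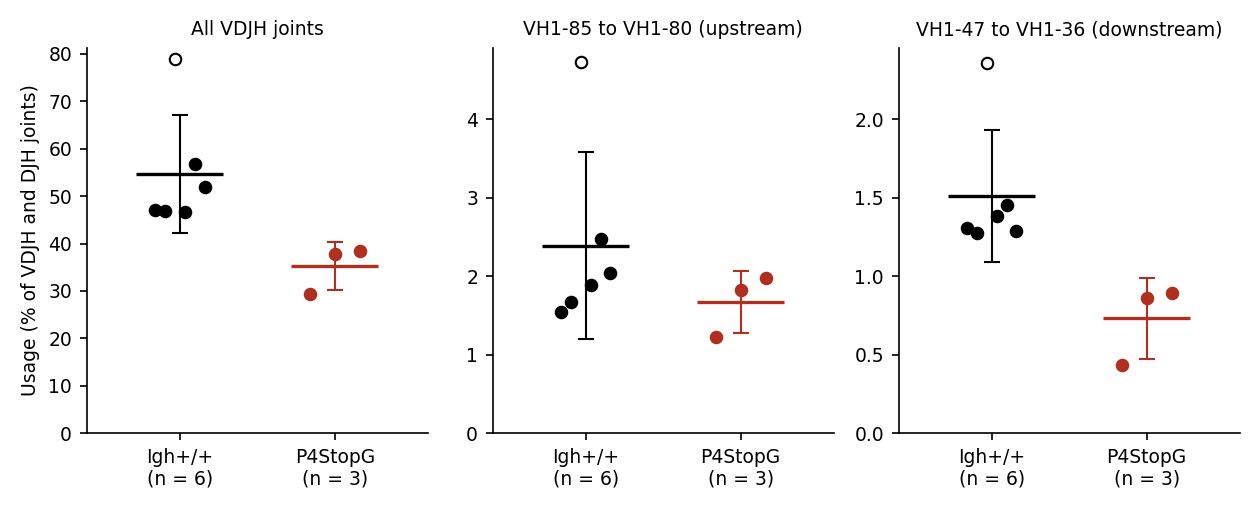
Usage as a percentage of all VDJH and DJH joints, for all VDJH joints (left), the 6 upstream VH genes (middle) and the 6 downstream VH genes (right). Each point is a library, lines are means, bars are SD, and the open point is the Igh+/+ library of experiment 126448; P4StopG points lie below all Igh+/+ points on the left and on the right, whereas in the middle 1 P4StopG point lies below them and the other two among them.

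The ratio of upstream to downstream usage within a library does not depend on whether DJH joints are counted in the denominator. This ratio was added after the sums had been seen, so its p-values restate them and are no separate support. It was 2.81, 2.12 and 2.20 in the P4StopG libraries and 1.18 to 2.01 in the Igh+/+ libraries, where 2.01 was experiment 126448 and the next highest value was 1.70. The Igh+/+ libraries with these highest ratios also had the highest percentages of VDJH joints, 78.8% and 56.8%. All P4StopG libraries were above all Igh+/+ libraries (exact permutation test, p = 0.0238, and p = 0.0357 without experiment 126448).

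Among the 6 upstream genes, the ratio of the P4StopG mean to the Igh+/+ mean was uneven. VH1-80, the gene closest to the insertion at 23.9 kb from the edge, was used in 0.254%, 0.425% and 0.403% of the joints, against 0.190% to 0.689% with a median of 0.315% in Igh+/+ libraries, which is a ratio of 0.992. VH1-81, the most used gene of the 6, had 0.523%, 0.634% and 0.857% against 0.592% to 2.05% with a median of 0.699%. Without experiment 126448, the mean of VH1-81 was 0.949 times and that of VH1-80 was 1.21 times the Igh+/+ mean. The groups overlapped for both genes.

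VH1-84, at 92.2 kb from the edge, was the upstream gene that passed the test for single genes. Its usage was 0.0392%, 0.0120% and 0.0336% in the P4StopG libraries and 0.0604% to 0.144%, with a median of 0.0883%, in the Igh+/+ libraries. The P4StopG values lay below all Igh+/+ values, and the change was -1.45 ± 0.31 (SE) on the log2(usage + 0.01) scale (limma, adjusted p = 0.0166). The lowest usage above 0 was 0.00399% in P4StopG replicate 2 and 0.00280% in replicate 3, so their VH1-84 values may rest on few joints. VH1-82, VH1-83 and VH1-85, at 64.1 kb, 75.3 kb and 111.6 kb, had ratios of 0.608, 0.716 and 0.580 with overlapping libraries and adjusted limma p-values of 0.161, 0.254 and 0.151. VH1-83 and VH1-85, whose RSS are identical, differed in usage already in Igh+/+ libraries, with means of 0.0905% and 0.228%.

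All 6 downstream genes had a lower mean in P4StopG than in Igh+/+ cells. VH1-47, 7.4 kb from the downstream edge, was used in 0.173%, 0.371% and 0.378% of joints against 0.473% to 0.530% in Igh+/+ libraries. Its Igh+/+ values were tight and included experiment 126448, and no P4StopG value came near them, but the adjusted limma p was 0.0623, and 0.0187 without that library. VH1-39 and VH1-36 passed the test with all libraries. VH1-39 had 0.110%, 0.251% and 0.249% against 0.357% to 0.999% (median 0.407%), a log2 change of -1.23 ± 0.34 (SE; limma, adjusted p = 0.0436).

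VH1-36, the farthest of the downstream genes at 118.5 kb, had the lowest ratio of these 6 genes, 0.312. It was used in 0.04998%, 0.0598% and 0.109% of the joints of the P4StopG libraries and in 0.165% to 0.370% (median 0.204%) of those of Igh+/+ libraries. Again the libraries did not overlap, and the log2 change was -1.57 ± 0.29 (SE; limma, adjusted p = 0.0108). VH1-42 had a ratio of 0.535 without overlap and an adjusted limma p of 0.0642. The little used VH1-37 and VH1-43 had ratios of 0.336 and 0.536, overlapped with Igh+/+ libraries, and were each listed at 0 in P4StopG replicate 2. VH1-81 and VH1-39, which share an RSS across the deletion, had ratios of 0.721 and 0.410.

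Of the 241 VH names listed in each library, 183 could be placed in the locus by annotation, 134 of them outside the deletion. Among these, 89 VH genes with a mean usage of at least 0.01% were tested in 1 limma fit. Usage of 6 genes (6.74%) fell and none rose at an adjusted p below 0.05, and 32 had an unadjusted p below 0.05. This count rested on single libraries: it was 1 without P4StopG replicate 1, 2 without Igh+/+ replicate 5 or 6, and 26 without experiment 126448, while 20 genes passed, 16 lower and 4 higher, when libraries were weighted by their spread. The median change of all 89 genes was -0.31 on the log2 scale, and it was -0.12 for the same genes as a share of the VDJH joints outside the deletion. In addition to VH1-36, VH1-39 and VH1-84, the genes that fell were VH15-2, VH2-9-1 and VH5-9. All 6 are annotated as VH segments, as are 75 of the 89 tested genes. Without experiment 126448 the 6 changes were -0.81 to -1.43, with adjusted limma p-values of 0.000621 to 0.0147. Libraries did not overlap and were lower in P4StopG for 18 genes (20.2%), and were higher for 1 gene (1.12%), VH12-3.

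VH15-2 lies far downstream in the distal part of the cluster. Its usage was 0.262%, 0.263% and 0.328% in P4StopG and 0.453% to 0.718% (median 0.530%) in Igh+/+ libraries, so that all P4StopG values were lower, and the log2 change was -0.91 ± 0.20 (SE; limma, adjusted p = 0.0174). VH2-9-1 and VH5-9 belong to the proximal families VH2 and VH5. VH2-9-1 had 0.194%, 0.203% and 0.248% against 0.330% to 0.674% (log2 change -0.94, limma, adjusted p = 0.0303). VH5-9 had 0.0588%, 0.0478% and 0.0840% against 0.0943% to 0.171% (log2 change -0.98, limma, adjusted p = 0.0303). For both genes the libraries did not overlap.

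Without experiment 126448, 26 of the 89 genes (29.2%) passed the same test. Of these 24 fell (27%), among them all 6 named above and 7 of the 14 tested pseudogenes, and 2 rose (2.25%), VH1-12 and VH12-3. VH12-3, a gene known from the antibodies of B-1 cells that bind phosphatidylcholine, was used in 1.06%, 1.10% and 1.34% of P4StopG joints and in 0.645% to 0.952% (median 0.879%) of Igh+/+ joints. Here experiment 126448 was the lowest Igh+/+ library. VH1-12 had 0.308%, 0.371% and 0.428% in P4StopG, against 0.178% to 0.529% (median 0.224%) in Igh+/+ libraries, of which the highest was experiment 126448. As a share of VDJH joints outside the deletion, 12 of 92 genes passed (13%), 11 of them lower and VH1-12 (1.09%) higher. When usage was instead divided by all VDJH joints, 18 genes were higher and 3 lower, and the median change was 0.29; by construction, this scale raises every kept gene in cells that have lost the deleted genes. The direction of a single gene that moved little is thus set by the scale, whereas the downstream genes fell on all 3 scales as a sum.

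**Figure D2:**
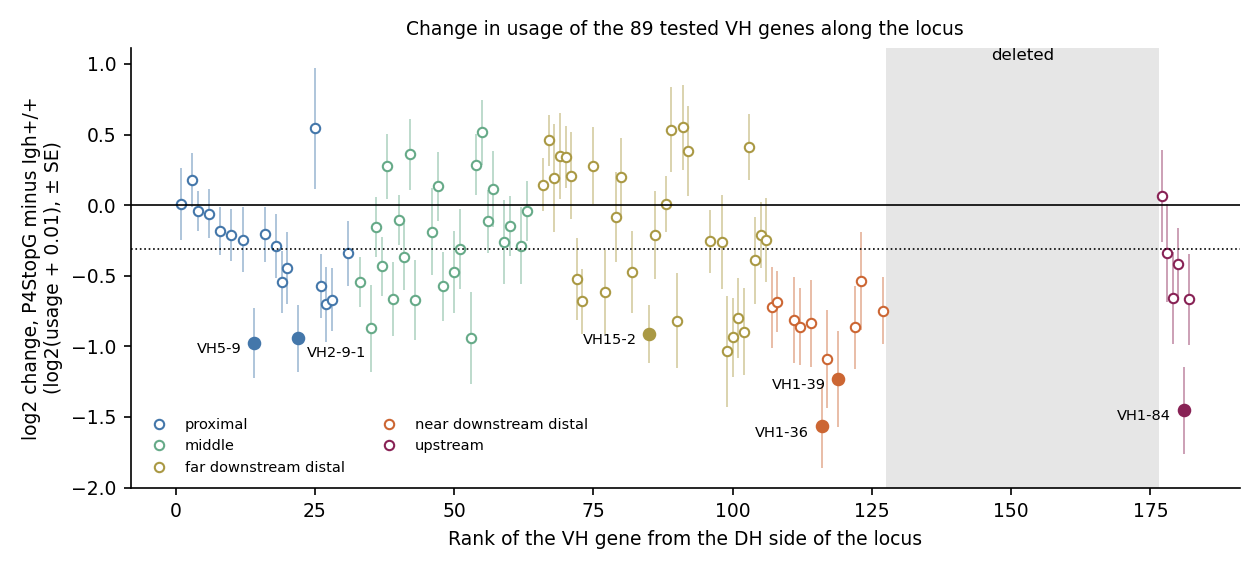
Log2 change of usage (P4StopG minus Igh+/+, log2(usage + 0.01) with SE) against the rank of each VH gene from the DH side, coloured by zone, with filled points for an adjusted limma p below 0.05. The dotted line is the median change of -0.31; the 11 tested genes just downstream of the deletion all lie below 0.

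The placed VH genes were divided by position into 5 zones outside the deletion. VH1-27, the edge of the near downstream distal zone, is where the paper ends the decreased recombination downstream of this deletion. Because P4StopG cells carry the deletion, a low value of this zone is no separate support. The near downstream distal zone, VH1-27 to VH1-47, had the lowest ratio to Igh+/+ cells, 0.501. Its summed usage was 0.747%, 1.28% and 1.34% in P4StopG libraries, against 1.84% to 3.43% in Igh+/+ libraries with a median of 2.01%. The mean was 1.12% ± 0.326 (SD, n = 3) against 2.24% ± 0.596 (SD, n = 6), and the groups did not overlap (exact permutation test, p = 0.0238, adjusted p = 0.0595 over the 5 zones). The ratio was 0.560 without experiment 126448 (exact p = 0.0357) and 0.584 as a share of the VDJH joints outside the deletion (exact p = 0.0238). With these numbers of libraries, an adjusted p below 0.05 over 5 zones would need at least 3 zones at the smallest p. Within this zone, all 11 tested genes had a log2 change below 0, as did 66 of all 89, with a median of -0.84, and 8 of the 11 did not overlap with Igh+/+ libraries, against 20.2% of all tested genes. The 11 genes are the 6 described above and VH1-27, VH1-28, VH1-31, VH1-32 and VH1-34. VH1-34 was the most used of these 5, with 0.140%, 0.213% and 0.231% against 0.255% to 0.713% in Igh+/+ libraries, and VH1-28 was lower with 0.0118%, 0.0120% and 0.0084% against 0.0187% to 0.0284%.

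The proximal zone, VH5-1 to VH5-19, showed a small difference between tight groups. P4StopG libraries had 9.43%, 8.97% and 9.38%, and Igh+/+ libraries 10.1% to 10.7%, including 10.3% in experiment 126448. The groups did not overlap, the ratio of the means was 0.890 (exact p = 0.0238, adjusted p = 0.0595; without experiment 126448, 0.889 and exact p = 0.0357), and the median change of its 18 tested genes was -0.27. As a share of the VDJH joints outside the deletion, the proximal zone had 26.9% in P4StopG and 25.9% in Igh+/+ libraries and overlapped, with p = 0.786 in the exact test. VH5-2, also called VH81X, the VH gene with the highest usage in Igh+/+ cells, had 3.35%, 2.70% and 2.59% in P4StopG and 1.58% to 2.99% in Igh+/+ libraries. VH2-2, another much used proximal gene, had 1.58%, 1.43% and 1.47% against 1.40% to 1.63%. Neither gene differed beyond the spread, with adjusted limma p-values of 0.499 and 0.824.

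The middle zone (VH7-1 to VH3-8) and the far downstream distal zone (VH8-1 to VH1-26) overlapped between the groups. The middle zone had 6.53%, 9.59% and 9.09% in P4StopG against 8.53% to 13.7% in Igh+/+ libraries (exact p = 0.262), with a ratio of 0.833, and of 0.896 without experiment 126448. The far zone had 9.998%, 14.8% and 15.01% against 11.3% to 21.3% (exact p = 0.786), and the ratio of its means was 0.939 with all Igh+/+ libraries and 1.05 without experiment 126448. VH1-26, the most used gene of the far zone, had 0.845%, 1.55% and 1.54% against 1.12% to 2.96%, with a ratio of 0.821 that became 0.990 without that library. The median log2 changes were -0.22 for the 24 tested genes of the middle zone and -0.21 for the 30 of the far zone, whereas the 6 upstream genes had a median of -0.54. In P4StopG replicate 1 the sums were the lowest of the 3 in all zones but the proximal one.

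**Figure D3:**
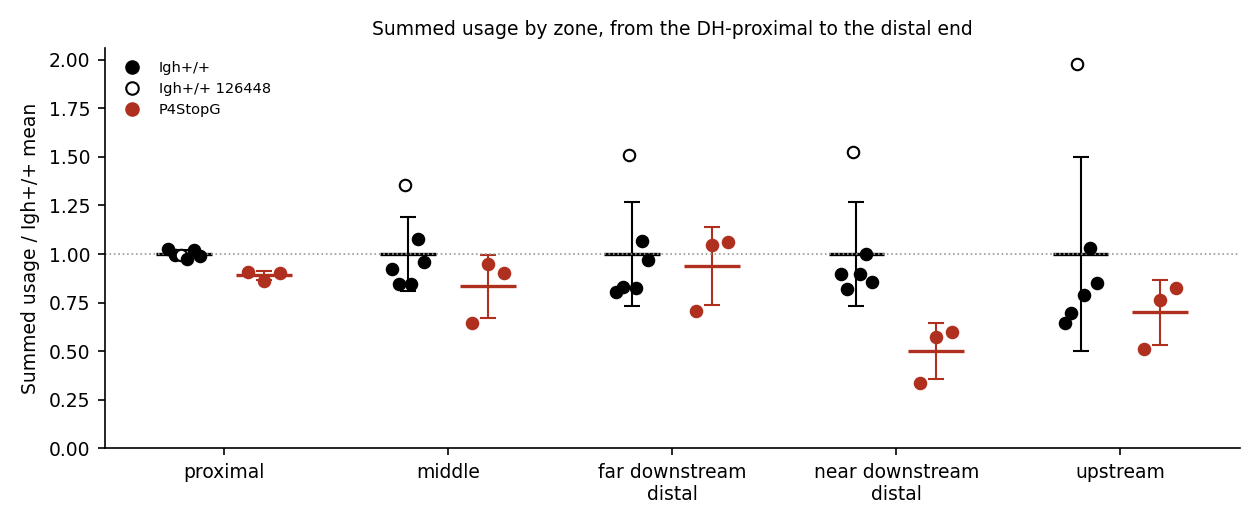
Summed usage of each zone divided by its Igh+/+ mean, from the zone closest to the DH segments to the distal end. Points are libraries, lines means and bars SD; the near downstream distal zone has a P4StopG mean of 0.501, the proximal zone 0.890, and the open points of experiment 126448 lie above the other Igh+/+ libraries in all zones except the proximal one.

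The 16 VH families outside the deletion were compared in the same way, and none passed at an adjusted p below 0.05 over the families, while 7 had an unadjusted exact p below 0.05. VH1 (J558), the largest family with 57 kept names, spreads over the distal part of the cluster and includes all 12 genes shown above. Its sum was 9.83% ± 2.25 (SD, n = 3) in P4StopG and 12.8% ± 4.42 (SD, n = 6) in Igh+/+ libraries, with overlap (exact p = 0.310), and the ratio of 0.766 became 0.884 without experiment 126448. Of the 36 VH1 genes tested, 30 had a change below 0 and 3 passed the limma test, all lower, beside 66 and 6 of all 89 tested genes.

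P4StopG libraries were below all Igh+/+ libraries for the families VH2, VH5, VH7, VH14 and VH15, and above them for VH12, each at the smallest exact p of 0.0238 and an adjusted p of 0.0635. VH14 had 0.597%, 0.885% and 0.748% against 0.978% to 2.48%, a ratio of 0.549, and all 4 of its tested genes had a change below 0, like 66 of the 89 tested genes, from -0.66 for VH14-2 to -0.94 for VH14-4. VH15, which rests on VH15-2 alone, had a ratio of 0.520. VH2 and VH5, the main proximal families, differed less: VH2 had a mean of 3.27% against 3.88% in Igh+/+ libraries, and VH5 one of 6.01% against 6.55%. VH12 had a ratio of 1.35, with 1.16%, 1.26% and 1.504% against 0.722% to 1.10%, and this rests mostly on VH12-3. Without experiment 126448 these 6 families kept their direction without overlap (exact p = 0.0357), with ratios of 0.841 for VH2, 0.916 for VH5, 0.800 for VH7, 0.658 for VH14, 0.555 for VH15 and 1.28 for VH12.

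Without experiment 126448, VH8, which outside the deletion rests on VH8-2, joined the families below all Igh+/+ libraries, with 0.320%, 0.490% and 0.428% against 0.640% to 0.812%. That library had 0.434%. As a share of VDJH joints outside the deletion, VH7, VH14 and VH15 were lower without overlap (exact p = 0.0238), VH12 and VH13 were higher, and VH2 and VH5 overlapped (exact p = 0.786 and 0.548). On this scale VH10 and VH11 had ratios of 1.39 and 1.42 with overlap (exact p = 0.0476 for both). Without experiment 126448, VH6 and VH10 were also higher without overlap, with ratios of 1.44 and 1.47 (exact p = 0.0357), VH8 was lower without overlap, with a ratio of 0.622 (exact p = 0.0357), and VH11 overlapped (exact p = 0.0714). As a percentage of all joints, the families VH3, VH4, VH6, VH9, VH10 and VH11 overlapped between the groups, with ratios from 0.737 for VH9 to 1.25 for VH11. Without experiment 126448 these families still overlapped, with ratios from 0.855 for VH9 to 1.36 for VH10.

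**Figure D4:**
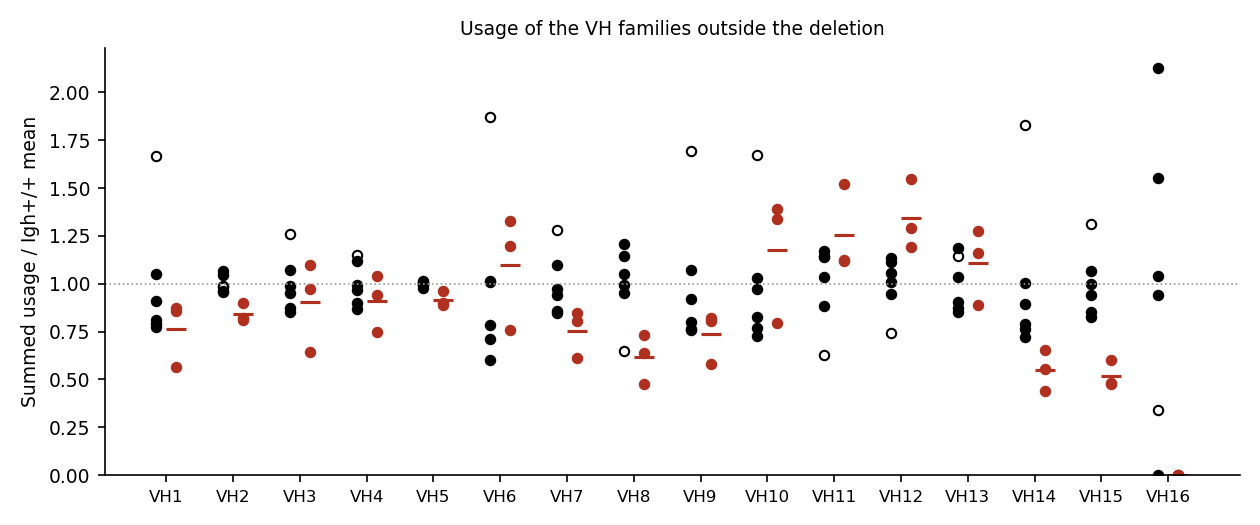
Summed usage of the kept genes of each VH family divided by its Igh+/+ mean. Black points are Igh+/+ libraries (open, experiment 126448), red points P4StopG libraries and red lines their mean; VH14 (0.549) and VH15 (0.520) have low ratios without overlap, VH12 (1.35) a high one, and VH16, with 1 little used name, is listed at 0 in P4StopG.

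The annotated class of a gene, VH segment or pseudogene, was not used to choose the genes. Names that the annotation does not place have no class and are left out here. Of the 134 placed VH genes outside the deletion, 83 are annotated as VH segments and 51 as pseudogenes, which can recombine but give no heavy chain. The pseudogenes together had 1.94%, 2.48% and 2.36% in P4StopG and 2.69% to 3.18% in Igh+/+ libraries, without overlap (exact p = 0.0238, and 0.0357 without experiment 126448). The VH segments had 26.0%, 34.0% and 34.4% against 31.5% to 50.7% and overlapped (exact p = 0.310). Among all placed genes outside the deletion, pseudogenes had a share with a mean of 6.72% in P4StopG against 7.55% in Igh+/+ libraries with overlap (exact p = 0.381). Here 1 library decided the call: experiment 126448 had the lowest share of all Igh+/+ libraries, 5.20%, and without it the Igh+/+ mean was 8.02%, all P4StopG values were lower, and the exact p was 0.0357. These class sums were added after the data had been seen.

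Next, the genes around the insertion were compared with those of the other alleles that share the deletion. The Δ890 and P4 libraries have experiment numbers farther away, and each library was therefore divided by the mean of the Igh+/+ libraries with experiment numbers near its own. The labels do not call these sets of numbers batches. The ratio of the 6 upstream genes was 0.511, 0.763 and 0.826 in P4StopG, 1.04, 1.00 and 0.970 in P4, and 0.335, 0.458 and 0.304 in Δ890 libraries. P4StopG values lay between those of the other alleles and overlapped with neither. The P4StopG mean of 0.700 was above that of Δ890 by 0.334 and below that of P4 by 0.305, both with p = 0.1, which is the smallest p that an exact test of 3 against 3 libraries can give. Without experiment 126448 in the control set, the P4StopG mean rose to 0.871, still without overlap with Δ890 (exact p = 0.1), while it overlapped with P4 (exact p = 0.4). When the 6 ratios were averaged instead of the sums, the means were 0.654 for P4StopG, 0.923 for P4 and 0.338 for Δ890.

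The libraries of the inverted insert P4inv have experiment numbers (126455 to 126457) in the same range as those of P4StopG (126450 to 126452) and were set against the same Igh+/+ libraries. The labels do not say whether they were sequenced together, and usage was compared without scaling. The 6 upstream genes had 1.62%, 1.43% and 1.99% in P4inv libraries, with a mean of 1.68% ± 0.286 (SD, n = 3) against 1.67% in P4StopG, and the difference was far within the spread (exact p = 0.9). The downstream genes had a mean of 0.690% in P4inv and 0.731% in P4StopG libraries (exact p = 0.8). With 3 libraries in each group, neither test could have gone below 0.1.

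Relative to their own Igh+/+ libraries, the 6 downstream genes had means of 0.483 in P4StopG, 0.516 in P4 (exact p = 0.9), and 0.298 in Δ890 (exact p = 0.2). They were below 1 in every library of all these alleles, with a highest value of 0.593 in P4StopG, 0.570 in P4 and 0.364 in Δ890 libraries. The ratio of upstream to downstream usage, not divided by controls, was 1.33 to 1.40 in Δ890 libraries, above the 0.979 to 1.26 of their Igh+/+ libraries. In P4 libraries it was 2.51 to 2.81, against 1.22 to 1.47 in theirs. P4inv libraries had 2.04 to 2.89 and P4StopG libraries 2.12 to 2.81, both against 1.18 to 2.01.

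**Figure D5:**
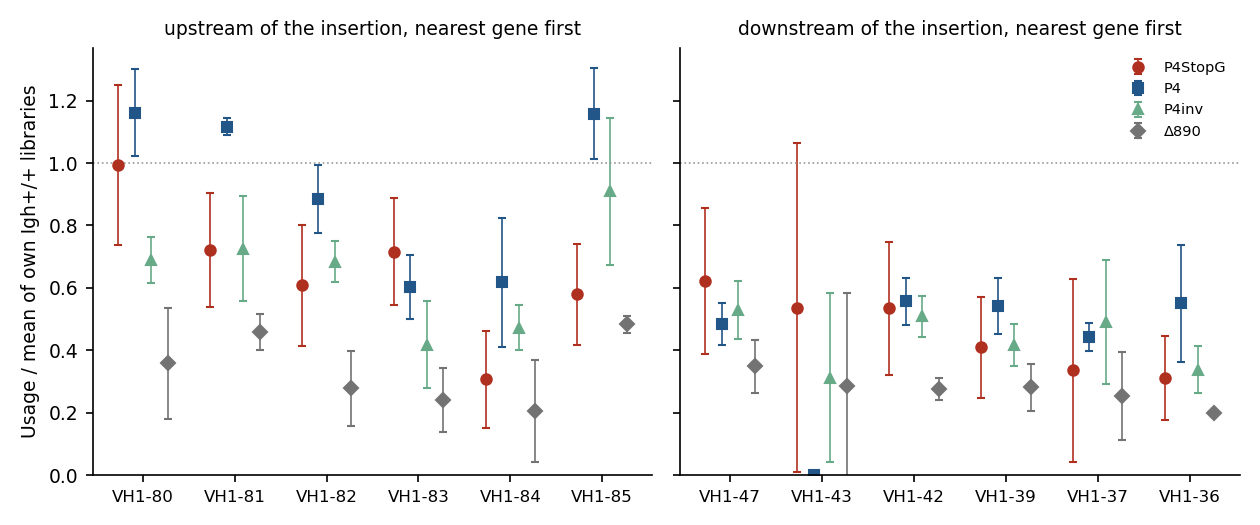
Usage of the 6 upstream (left) and 6 downstream (right) VH genes in P4StopG, P4, P4inv and Δ890 libraries, divided by the mean of the Igh+/+ libraries with neighbouring experiment numbers (mean and SD, n = 3; dotted line, 1). Upstream, Δ890 means lie between 0.206 and 0.484 and P4StopG means between 0.307 and 0.992; downstream, the means of all alleles lie below 1, and VH1-43 is listed at 0 in all P4 libraries.

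No single VH gene passed between P4StopG and P4 in the limma test of the difference between their changes (0 of 88 genes, 3 at an unadjusted p below 0.05). The largest differences among the 6 upstream genes were those of VH1-85 and VH1-84, at -0.86 and -0.85 on the log2 scale (limma, adjusted p = 0.788 for both). Their confidence intervals were -1.76 to 0.0267 and -1.76 to 0.0620, so the absence of a difference does not follow. None passed between P4StopG and P4inv (0 of 89 by limma, 8 at an unadjusted p below 0.05). Between P4StopG and Δ890, no gene passed with all libraries (0 of 89 by limma, 5 at an unadjusted p below 0.05), and 4 of 88 (4.55%) passed without experiment 126448. All 4 were upstream genes with more usage in P4StopG relative to its Igh+/+ libraries: VH1-80 (log2 difference 1.72, limma, adjusted p = 0.00118), VH1-82 (1.38, adjusted p = 0.00543), VH1-81 (1.01, adjusted p = 0.0153) and VH1-83 (1.21, adjusted p = 0.04998). With all libraries, the same 4 differences were 1.52, 1.17, 0.75 and 1.30, and their adjusted p-values were 0.175 to 0.972. As a share of the VDJH joints outside the deletion, 1 of 93 genes (1.08%) passed, VH1-80. VH1-84 and VH1-85, the upstream genes farthest from the insertion apart from VH1-86, had smaller differences from Δ890, of 0.19 and 0.27 with all libraries and 0.32 and 0.48 without experiment 126448, and passed in neither.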

How the data were processed

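VDJ-seq was analysed in sorted pro-B cells. Per the study's methods, the authors sheared genomic DNA, added adapters with unique molecular identifiers, extended joints from JH primers, removed duplicates and assigned joints to VH genes. The deposited values are a percent of all VDJH and DJH joints of a library, in a column headed by the experiment number. This scaling makes genes depend on each other, since a lost region or fewer VDJH joints move all other percentages, and without joint counts the depth behind a value is unknown. Assignment to near-identical VH genes could not be checked. The submitters' processing notes name Bowtie 0.12.5 and R 3.3.3, among other tools, and the builds mm9 and mm10.

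VH names were ordered by the RefSeq annotation (58 of 241 names were not placed and were left out of the test), and sequences were read from mm9. Single genes were tested with limma 3.58.1 (R 4.3.3, moderated with a mean trend) after adding a pseudocount of 0.01% and taking log2, over placed genes outside the deletion with a mean of at least 0.01%, with Benjamini-Hochberg adjustment and a threshold of 0.05. Such fold changes understate the change of little used genes. For sums, exact two-sided permutation tests were run (scipy 1.17.1), adjusted over zones or families. Named genes are the 12 genes the study followed, VH8-7, the 10 most used in Igh+/+ cells outside the deletion, those that passed (in the comparison with Igh+/+ without overlap) and up to 5 deleted genes with a mean of at least 0.01% in P4StopG; VH12-3, VH1-12, VH8-2, VH14-2, VH14-4, VH1-28 and VH1-34 were named after their values were seen. Members, zones and gene lists were chosen with earlier results of these data known. Alternatives were other pseudocounts, filters, scalings, weights and control sets, and leaving out each library. RNA-seq and ChIP-seq files were not used here. No library used had the values of another library.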

Additional observations from a re-analysis of the deposited data

Results flagged for a closer look

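In 54 sets of 6 Igh+/+ values, the gap of the highest or lowest library to its nearest neighbour was compared with the whole range. It stood out in 27 sets, and each time the library was that of experiment 126448. Chance would single out about 1 in 20 separate sets, but these sets are not separate: sums contain single genes, the upstream zone includes the 6 upstream genes, and all are percentages of the same libraries. The 27 sets therefore cannot be read against that rate. This library was highest for VDJH joints (78.8%), the deleted region (23.2%), the 6 upstream genes and the upstream zone (4.73%), the 6 downstream genes (2.36%), the far downstream distal zone (21.3%) and the near downstream distal zone (3.43%). It was also highest for the families VH1 (21.4%), VH6 (2.54%), VH9 (3.07%), VH10 (2.72%) and VH14 (2.48%). Among single genes it was highest for VH1-85 (0.458%), VH1-82 (1.33%), VH1-81 (2.05%), VH1-42 (0.411%), VH1-39 (0.999%), VH1-26 (2.96%), VH3-6 (2.39%), VH10-1 (1.47%), VH9-3 (1.70%) and VH2-9-1 (0.674%). The deleted genes VH1-69 (0.954%), VH1-64 (2.14%), VH1-56 (0.196%) and VH1-74 (0.874%) were highest in it as well. For VH5-2 it was lowest (1.58%). What sets this library apart was not tested.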

How the results depend on the processing

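No paired analysis was possible because the labels carry no replicate numbers that are shared between genotypes. With all libraries, 6 VH genes passed the test between P4StopG and Igh+/+. The count was 12 as a share of VDJH joints outside the deletion, 21 as a percentage of VDJH joints, 20 with library weights (16 lower, 4 higher), 29 with all 15 libraries of neighbouring experiment numbers in the fit, 33 with the Igh+/+ libraries of 4 experiment sets, 19 with the unplaced names (added after seeing the data) and 4 without a filter. Leaving out single libraries gave 1 (P4StopG replicate 1) to 26 (experiment 126448) genes, and 2 genes without Igh+/+ replicate 5 or 6. Against Δ890, 1 gene passed as a share of VDJH joints outside the deletion, and 0 to 4 did when single libraries were left out. Leaving out single libraries gave differences of -21.1 to -14.7 points for VDJH joints, -0.864 to -0.611 for the downstream and -0.887 to -0.248 for the upstream genes, 0.271 to 0.505 for the upstream ratio against Δ890, -0.368 to -0.134 against P4, and -0.160 to 0.216 points for upstream usage against P4inv; with 2 P4StopG libraries left, the smallest exact p is 0.0714. With only the VH genes outside the deletion, the difference in VDJH joints was -6.12 points. It was -12.3 points with the Igh+/+ libraries of 4 experiment sets.

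As a percentage of all VDJH joints, 4 zones passed, 3 higher and the near downstream distal zone lower, and 10 families passed, 9 of them higher. On this scale the sign turned for the upstream genes and upstream zone (0.516 points), the proximal (7.07), middle (5.21) and far downstream distal zones (11.8), and the families VH1 (4.63), VH2 (2.06), VH3 (2.54), VH4 (0.920), VH5 (5.02), VH7 (0.350) and VH9 (0.533). It also turned, in log2 change, for VH1-83 (0.14), VH1-81 (0.28), VH1-26 (0.37), VH2-2 (0.58), VH3-6 (0.35), VH1-18 (0.36), VH5-4 (0.56) and VH9-3 (0.14). As a share of VDJH joints outside the deletion, it turned for the proximal (0.998) and far downstream distal zones (3.63), VH3 (0.408), VH4 (0.180), VH5 (1.19), VH2-2 (0.18), VH5-4 (0.16) and for upstream usage against P4inv (0.687), and, without experiment 126448 as well, for the far zone (4.51), VH3 (0.277), VH4 (0.0808) and VH5 (0.274). With library weights it turned for VH1-81 (0.058), VH5-2 (-0.018), VH1-26 (0.12), VH3-6 (0.10) and VH1-11 (-0.020). Leaving out single libraries gave both signs for the far zone (-1.73 to 0.771), VH3 (-0.708 to 0.125), VH6 (lowest -0.0289), the downstream ratio against P4 (0.0288 without experiment 126448), and, in log2 change, VH1-80 (-0.10 to 0.29), VH1-26 (-0.39 to 0.042), VH3-6 (-0.49 to 0.073), VH5-4 (-0.14 to 0.063) and VH1-11 (-0.10 to 0.077). None of these results had passed as a percentage of all joints with all libraries, with zones, families and single genes judged by adjusted p. The proximal zone and the families VH2, VH5 and VH7 had been lower without overlap, at an unadjusted p of 0.0238 in the exact permutation test. The direction of these 4 thus depends on the scale. The cause was not tested. Of 52 single genes, zones, families and classes, 9 kept direction and call under every alternative.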

Other observations

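The 58 VH names that the annotation does not place were left out of the zones and families. Together they took 1.22%, 1.28% and 1.41% of the joints in P4StopG libraries and 1.57% to 2.16% in Igh+/+ libraries, with no overlap (exact permutation test, p = 0.0238, and 0.0357 without experiment 126448). Of the 23 unplaced names with a mean of at least 0.01% in Igh+/+ libraries, 5 were listed at 0 in all P4StopG libraries. Whether these 5 lie within the deletion is not known from the names. In the number of VH names with a value above 0, P4StopG libraries had 136, 114 and 121 and Igh+/+ libraries 168 to 181. The deleted region holds 49 of the listed names, and Δ890 libraries had 132 to 142 names above 0. P4StopG replicates 2 and 3 also had a higher lowest value above 0 than the Igh+/+ libraries.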
